A study of Homo sapiens with 7 samples.

Results

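The cytosolic ribosome is built from a large and a small subunit, each a ribosomal RNA core clothed by ribosomal proteins that are present once per ribosome, apart from the paired acidic proteins of the stalk. Their genes are among the most strongly transcribed in dividing cells, and most of their mRNAs start with a C followed by a run of pyrimidines, the terminal oligopyrimidine (TOP) motif, through which the mTOR pathway and LARP1 control translation and stability. In neuroblastoma, MYCN is known to drive genes of ribosome production. Ribosomal protein genes were taken as the entries whose symbol follows the RPL or RPS numbering, with RPLP0, RPLP1, RPLP2 and RPSA, which gave 84 of the 28517 entries of the deposited tables. They were 46 genes of the large subunit, 31 of the small subunit and 7 paralogs with an L in their name that marks a copy of another ribosomal protein gene. Of these, 81 passed the filter on low values (a mean RPKM of at least 0.5 over 6 libraries) and were tested, together with the rest of the 14711 entries that passed.

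RNA was sequenced from NGP, a neuroblastoma cell line with amplified MYCN, in 7 libraries. The groups were ARID1A-/- line 1 (2 libraries), ARID1A-/- line 2 (2 libraries), an ARID1A+/- line (1 library) and control NGP cells (2 libraries), and all were grown with puromycin. ARID1A is a subunit of the BAF chromatin remodelling complex, and the study asked how its mutation changes expression in these cells. The replicated groups had 1 library made with the KAPA mRNA HyperPrep kit and 1 with the SMARTer Universal Low Input kit; the ARID1A+/- library was made with KAPA. Each mutant line is a single derived line with a single control line beside them, so genotype and other differences between the lines cannot be told apart. The position of the mutations is not given in the labels, and separate cultures are not stated, so p-values measure the spread between libraries, which may be technical.

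Total counts per library lay between 24445301 and 43644361. Ribosomal protein genes took 4.37% and 4.85% of the counts in line 1, 3.95% and 5.28% in line 2, 5.24% in the ARID1A+/- library and 5.35% and 7.95% in control, where the KAPA library is given before the SMARTer library here and in every pair of levels that follows. The SMARTer library of the control thus stood apart with the highest share, and results are given without it below. ARID1A itself had 17.2 and 16.7 RPKM (reads per kilobase of length, scaled to the library total) in line 1, 13.8 and 14.2 RPKM in line 2, 19.9 RPKM in the ARID1A+/- library and 22.0 and 22.3 RPKM in control, a lower level in mutant lines that does not show whether protein was made. Markers of sympathoadrenal neuroblasts were present (9 of 10 passed the filter), whereas 0 of 5 Schwann cell and 0 of 4 endothelial markers passed, with PECAM1 at 0 in every library. Of 5 immune markers 2 passed, CD68 at 2.63 to 4.78 RPKM and LYZ at 0.196 to 1.10 RPKM, with CD3E at 0 throughout, and of 5 epithelial markers 1 passed, EPCAM at 0.159 to 1.63 RPKM. Summed fibroblast markers were at 222 and 198 RPKM in line 1 and 43.2 and 48.2 RPKM in line 2. They were at 85.8 RPKM in the ARID1A+/- library and 82.0 and 81.6 RPKM in control. COL1A1 was the largest part of the sum except in the ARID1A+/- library, where it was at 17.1 RPKM and PDGFRA at 32.7 RPKM. COL1A2 was at or below 0.034 RPKM throughout. Of the 6 fibroblast markers tested, LUM, DCN and COL3A1 rose over both lines and PDGFRB fell (edgeR). In line 1 taken alone LUM, COL3A1, COL1A1 and DCN rose and 0 fell. In line 2 taken alone LUM and DCN rose, and COL1A1 and PDGFRB fell. DCN was at 2.21 and 4.44 RPKM in line 1, 3.74 and 4.02 RPKM in line 2, 1.75 RPKM in the ARID1A+/- library and 0.033 and 0.301 RPKM in control. Their part in the levels of ribosomal protein genes was not tested.

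The start of the transcript is shown for the genes on which the results turn, because it carries the TOP motif that sets most of these mRNAs apart from others. Sequences are RefSeq starts on GRCh38.p14, written 5′ to 3′ on the coding strand from 20 bases before the start base to 15 bases from it on, with the TOP run in capitals (a C at the start base and at least 4 pyrimidines after it). The first 4 are core genes with a TOP run and large changes, then RPS26, a core gene without one at its listed start, then RPS18 and RPS10 of chromosome 6, and last the paralogs with their parent genes.
RPS21 (chr20:62387083-62387117, plus strand): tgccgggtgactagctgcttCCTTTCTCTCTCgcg
RPS25 (chr11:119018329-119018363, minus strand): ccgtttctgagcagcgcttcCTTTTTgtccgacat
RPL12 (chr9:127451392-127451426, minus strand): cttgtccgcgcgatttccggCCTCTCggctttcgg
RPLP2 (chr11:809947-809981, plus strand): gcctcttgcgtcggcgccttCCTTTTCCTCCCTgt
RPS26 (chr12:56041898-56041932, plus strand): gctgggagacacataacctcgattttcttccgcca
RPS18 (chr6:33272055-33272089, plus strand): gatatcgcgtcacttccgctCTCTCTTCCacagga
RPS10 (chr6:34426055-34426089, minus strand): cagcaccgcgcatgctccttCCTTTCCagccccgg
RPL22L1 (chr3:170870181-170870215, minus strand): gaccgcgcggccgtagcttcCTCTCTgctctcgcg
RPL22 (chr1:6199581-6199615, minus strand): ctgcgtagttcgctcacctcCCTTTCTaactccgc
RPL26L1 (chr5:172958709-172958743, plus strand): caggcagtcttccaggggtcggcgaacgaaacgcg
RPL26 (chr17:8383179-8383213, minus strand): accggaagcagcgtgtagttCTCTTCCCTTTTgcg
RPS27L (chr15:63157463-63157497, minus strand): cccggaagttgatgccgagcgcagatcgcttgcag
RPS27 (chr1:153990742-153990776, plus strand): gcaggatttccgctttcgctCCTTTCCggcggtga
RPL7L1 (chr6:42879596-42879630, plus strand): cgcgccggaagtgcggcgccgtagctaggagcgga

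Starts were listed for 62 of the 77 core (large and small subunit) genes, 77 starts in all, and 46 of the 62 genes had a TOP run at a listed start. That was 59.7% of the core starts, against 4.08% of all 34961 listed starts. In windows from 250 bases before to 50 bases after the start, both strands read, the ETS core CCGGAAG was in 33.8% of the core windows against 10.3% of all windows. The letters AAGATGGC of the YY1 motif, which can share AAG with that core, were in 7.79% against 2.89%, and the GC box GGGCGG in 54.5% against 45.0%. The TATA box TATAAA was in 6.49% of core windows against 11.5% of all, and the E-box CACGTG, a motif bound by MYCN, in 5.19% against 7.27%. These matches describe letters in the windows and not binding.

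Levels of the 77 core genes spanned a wide range in every library. In the control libraries RPL28 was lowest at 30.3 and 46.7 RPKM, and RPL41, which encodes the smallest ribosomal protein, was highest at 2543 and 4239 RPKM, a ratio of 83.9 and 90.7 between them. The listed length of RPL28 was 5183 bases, the longest of the core genes, whose median was 1014 bases. RPKM divides by this length, and the rank correlation of level with listed length over the core genes lay between -0.44 and -0.52 in the 7 libraries. Among the highest mean levels after RPL41 were those of RPS6 (the substrate of S6 kinase), RPLP0 (the scaffold of the stalk) and RPS27. The order of the genes was nearly the same in all libraries, with rank correlations with the KAPA control between 0.97 and 0.99.

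Median levels of the core genes were lower in both ARID1A-/- lines than in control, in the large and the small subunit, while 3 of the 4 tested paralogs had fold changes near 0. The large subunit genes had medians of 392 and 435 RPKM in line 1, 340 and 442 RPKM in line 2, 445 RPKM in the ARID1A+/- library and 449 and 749 RPKM in control. For the small subunit the medians were 429 and 392 RPKM in line 1, 367 and 543 RPKM in line 2, 548 RPKM in the ARID1A+/- library and 562 and 802 RPKM in control. Within each kit, both lines lay below the control in both subunits, while the large subunit medians of the lines in SMARTer came near that of the control in KAPA. The summed RPKM of the small subunit over that of the large was 0.755 and 0.723 in line 1, 0.731 and 0.715 in line 2, 0.728 in the ARID1A+/- library and 0.731 and 0.700 in control, a ratio between 0.700 and 0.755 throughout. In bulk RNA, fewer cells with high levels and less RNA per cell cannot be told apart.

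**Figure D1:**
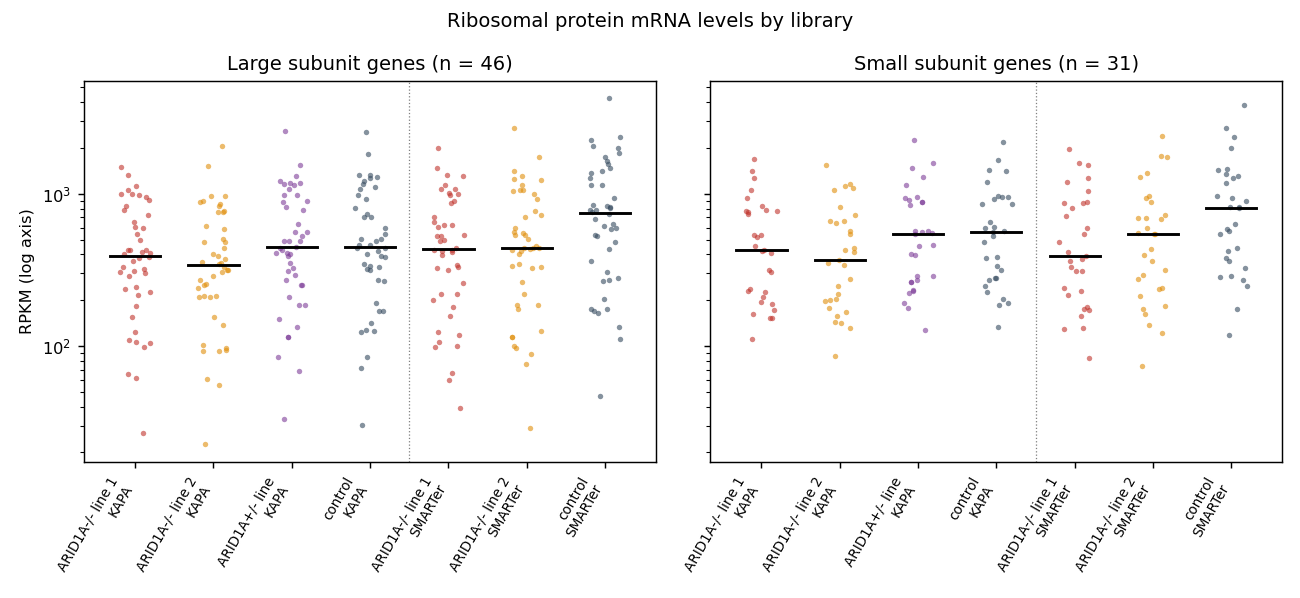
RPKM (log axis) of the 46 large subunit and 31 small subunit genes, 1 point per gene, in the 7 libraries, KAPA left and SMARTer right of the dotted line; black bars are medians. The SMARTer control has the highest medians, 749 RPKM for the large and 802 RPKM for the small subunit.

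Over the mean of both lines, with the kit in the model, 55 of the 81 genes fell and 0 rose (edgeR's quasi-likelihood test, Benjamini-Hochberg adjusted p under 0.05 over all genes). Of all genes tested, 9.57% fell and 4.64% rose. Fold changes here are on the log2 scale, and an error after ± is the SE of the fit on 2 libraries per group. Their median was -0.52, against 0.02 over all genes. Higher at an unadjusted p under 0.05 were 0 of the 81, and DESeq2 and limma also called 0 higher. In the large subunit 32 of 46 genes fell (median -0.52) and in the small subunit 23 of 31 (median -0.53). All 77 core genes had a fold change below 0, between -0.96 and -0.22 (75 of 77 were below 0 after quantile normalization), and 76 of them had an unadjusted p under 0.05. All 4 ARID1A-/- libraries were below both control libraries in RPKM for 39 of the 81 genes, against 11.6% of all genes tested, and above both for 0, against 10.2%. Within kits, all 4 differences from control were below 0 for 77 of the 81 genes, against 20.2% of all genes, and above 0 for 0 of them, against 21.2%. The exceptions were RPL26L1, RPL7L1, RPS27L and RPS4X, the last with 0.02 in line 1 in KAPA. The count of falls depended on single libraries: it was 1 without the SMARTer control, 6 without the KAPA control, and 8 and 6 without the SMARTer and the KAPA library of line 2, where the median lay between -0.66 and -0.40. Such fits without 1 library leave 1 residual degree of freedom, and all 77 core genes stayed below 0 in each of those named. The count of falls was 1 in a fit without the kit as replicate block, 17 with limma and 8 with limma after quantile normalization, where the median was -0.25.

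**Figure D2:**
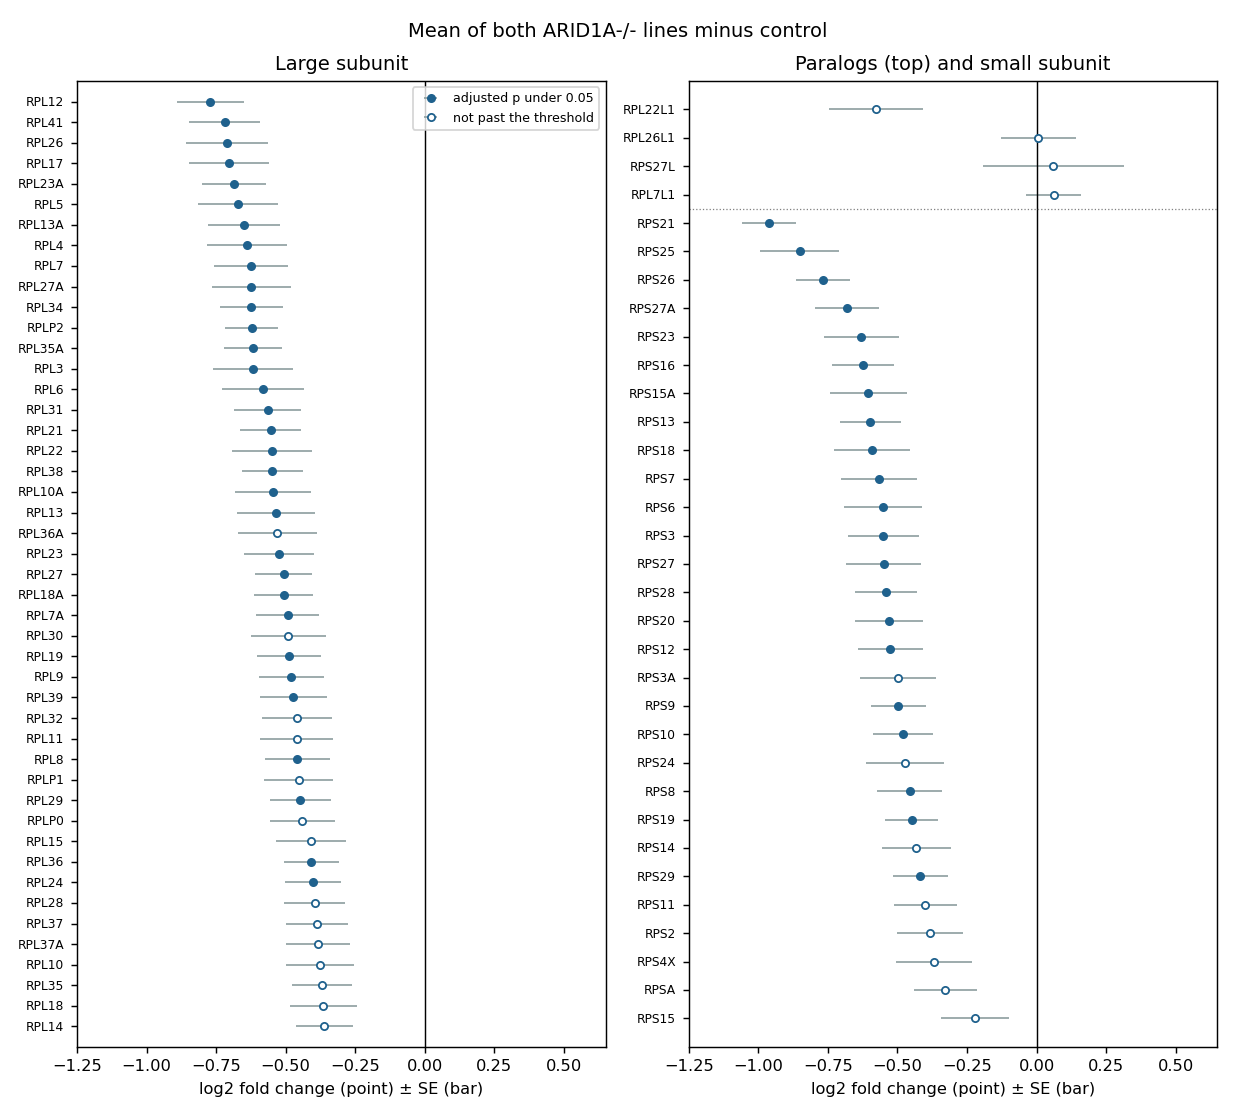
Fitted log2 fold change of each tested ribosomal protein gene, mean of both ARID1A-/- lines minus control, with bars of 1 SE, apart from a few genes that are not reported here; filled points passed the threshold of 0.05. All core genes lie below 0 in this fit (75 of 77 after quantile normalization), from RPS21 at -0.96 to RPS15 at -0.22, and 3 of the 4 paralogs lie near 0.

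RPS21, a small subunit protein, had the largest fall. Its level was 188 and 129 RPKM in line 1, 176 and 138 RPKM in line 2, 269 RPKM in the ARID1A+/- library and 334 and 271 RPKM in control. Every ARID1A-/- library was below every other library, with no overlap. The fold change was -0.96 ± 0.10 (SE; edgeR adjusted p = 0.00169), and it stayed past the threshold in 17 of 17 alternatives. The 40 tested genes next to it on chromosome 20 in RefSeq order had a median of -0.45 over both lines, the lowest neighbour median among the 81 genes (-0.36 in line 1 and -0.30 in line 2). The part of chromosomal position in its difference was not tested. RPS25, needed for translation from several viral internal ribosome entry sites, had 410 and 416 RPKM in line 1, 339 and 543 RPKM in line 2, 549 RPKM in the ARID1A+/- library and 605 and 938 RPKM in control. Again all ARID1A-/- libraries were below all others, and the fold change was -0.85 ± 0.14 (edgeR adjusted p = 0.011). RPS26, which sits at the mRNA exit of the small subunit and is mutated in Diamond-Blackfan anaemia, had 153 and 172 RPKM in line 1, 203 and 240 RPKM in line 2, 289 RPKM in the ARID1A+/- library and 282 and 360 RPKM in control. It fell by 0.77 ± 0.10 (edgeR adjusted p = 0.004), with all ARID1A-/- libraries below the control libraries too.

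In the large subunit the largest falls were in RPL12, RPL41 and RPL26. RPL12, at the base of the stalk where elongation factors bind, had 909 and 1077 RPKM in line 1, 759 and 1233 RPKM in line 2, 1076 RPKM in the ARID1A+/- library and 1331 and 2053 RPKM in control. It fell by 0.77 ± 0.12 (edgeR adjusted p = 0.009). RPL41 had 1495 and 1991 RPKM in line 1, 2060 and 2721 RPKM in line 2, 2597 RPKM in the ARID1A+/- library and 2543 and 4239 RPKM in control, so the SMARTer library of line 2 overlapped the KAPA control. Its fold change was -0.72 ± 0.13 (edgeR adjusted p = 0.014). At the other end, RPS15 of the small subunit head had 937 and 1276 RPKM in line 1, 821 and 936 RPKM in line 2, 1136 RPKM in the ARID1A+/- library and 950 and 1347 RPKM in control. Here line 1 lay close to the control in each kit, and the fold change of -0.22 ± 0.12 did not pass (edgeR adjusted p = 0.277) and was 0.16 after quantile normalization. RPSA, which also serves as a laminin receptor, was at -0.33 ± 0.11 and did not pass (edgeR adjusted p = 0.107).

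Genes with known roles beyond the ribosome were spread over this range. The stalk protein RPLP2 had 124 and 124 RPKM in line 1, 102 and 101 RPKM in line 2, 187 RPKM in the ARID1A+/- library and 170 and 171 RPKM in control, with the kits nearly equal and no overlap between the ARID1A-/- and the other libraries. It fell by 0.62 ± 0.09 (edgeR adjusted p = 0.008), whereas its partners RPLP1 (-0.45, edgeR adjusted p = 0.056) and RPLP0 (-0.44, edgeR adjusted p = 0.052) missed the threshold. RPL5 and RPL11 bind MDM2 when ribosome assembly is disturbed. RPL5 fell by 0.67 ± 0.14 (edgeR adjusted p = 0.028), RPL11 was at -0.46 ± 0.13 (edgeR adjusted p = 0.062), and MDM2 (-0.10) and the cell cycle inhibitor CDKN1A (-1.15, edgeR adjusted p = 0.070) did not pass. RPS6 fell by 0.55 ± 0.14 (edgeR adjusted p = 0.045), RPS14 was at -0.43 ± 0.12 (edgeR adjusted p = 0.064), and RPS19, the gene most often mutated in Diamond-Blackfan anaemia, fell by 0.45 ± 0.10 (edgeR adjusted p = 0.027). Of 18 tested genes linked to Diamond-Blackfan anaemia 13 fell and 0 rose (9.57% and 4.64% of all genes), and limma called 4 lower. Their median was -0.52, the same as for all tested ribosomal protein genes, of which 55 of 81 fell.

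The 7 paralogs were expressed at a small fraction of their parents or not at all. RPL10L, a testis gene, had no count in any of the 7 libraries. RPL3L, of heart and skeletal muscle, had at most 3 counts in a library, and RPL39L at most 2, so neither could be compared. Among the other four, the paralog's part of the summed RPKM of the pair was 1.86% and 1.43% for RPL22L1 in line 1, 1.81% and 1.40% in line 2, 1.62% in the ARID1A+/- library and 1.89% and 1.42% in control. RPL22 protein is known in mice to repress the mRNA of this paralog, and here the ratio of the pair moved by less within a kit than between the kits for the ARID1A-/- lines and control.

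RPL22L1 was the paralog whose levels came closest to the pattern of the core genes. It had 6.09 and 4.56 RPKM in line 1, 5.32 and 6.14 RPKM in line 2, 6.73 RPKM in the ARID1A+/- library and 7.78 and 8.47 RPKM in control, so all ARID1A-/- libraries were below both control libraries. Its fold change was -0.58 ± 0.17 and did not pass (edgeR adjusted p = 0.070), close to the -0.55 ± 0.14 of RPL22, which passed (edgeR adjusted p = 0.0498). RPL26L1 had 47.6 and 47.3 RPKM in line 1, 38.5 and 38.6 RPKM in line 2, 41.8 RPKM in the ARID1A+/- library and 48.2 and 36.7 RPKM in control. The groups overlapped, and the fold change was 0.01 ± 0.14, while RPL26 had 996 and 1139 RPKM in line 1, 857 and 1414 RPKM in line 2, 1161 RPKM in the ARID1A+/- library and 1294 and 2372 RPKM in control and fell by 0.71 ± 0.15 (edgeR adjusted p = 0.025). RPS27L had 16.3 and 26.6 RPKM in line 1, 17.8 and 21.1 RPKM in line 2, 15.8 RPKM in the ARID1A+/- library and 23.1 and 15.3 RPKM in control. Its order reversed between the kits, with line 1 minus control at -0.50 in KAPA and 0.81 in SMARTer, and the fold change over both lines was 0.06 ± 0.25. Its parent RPS27 fell by 0.55 ± 0.13 (edgeR adjusted p = 0.040).

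RPL7L1 had 52.3 and 41.6 RPKM in line 1, 78.5 and 61.8 RPKM in line 2, 46.6 RPKM in the ARID1A+/- library and 58.7 and 49.7 RPKM in control. Line 2 was highest and line 1 below the control in each kit, and over both lines the fold change was 0.06 ± 0.10. Its parent RPL7 fell by 0.62 ± 0.13 (edgeR adjusted p = 0.028). Of the other parents, RPL3 fell by 0.62 ± 0.14 (edgeR adjusted p = 0.035), RPL39 fell by 0.47 ± 0.12 (edgeR adjusted p = 0.046), and RPL10 was at -0.38 ± 0.12 (edgeR adjusted p = 0.089). Among the 4 tested paralogs, RPL22L1 had a TOP run at its listed start and RPL26L1, RPS27L and RPL7L1 had none. Within the core genes the medians were alike with and without a listed TOP run. The 46 genes with one had a median of -0.53 (32 fell), the 16 with starts but no TOP run a median of -0.52 (12 fell), and the 15 without a listed start a median of -0.51 (11 fell).

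**Figure D3:**
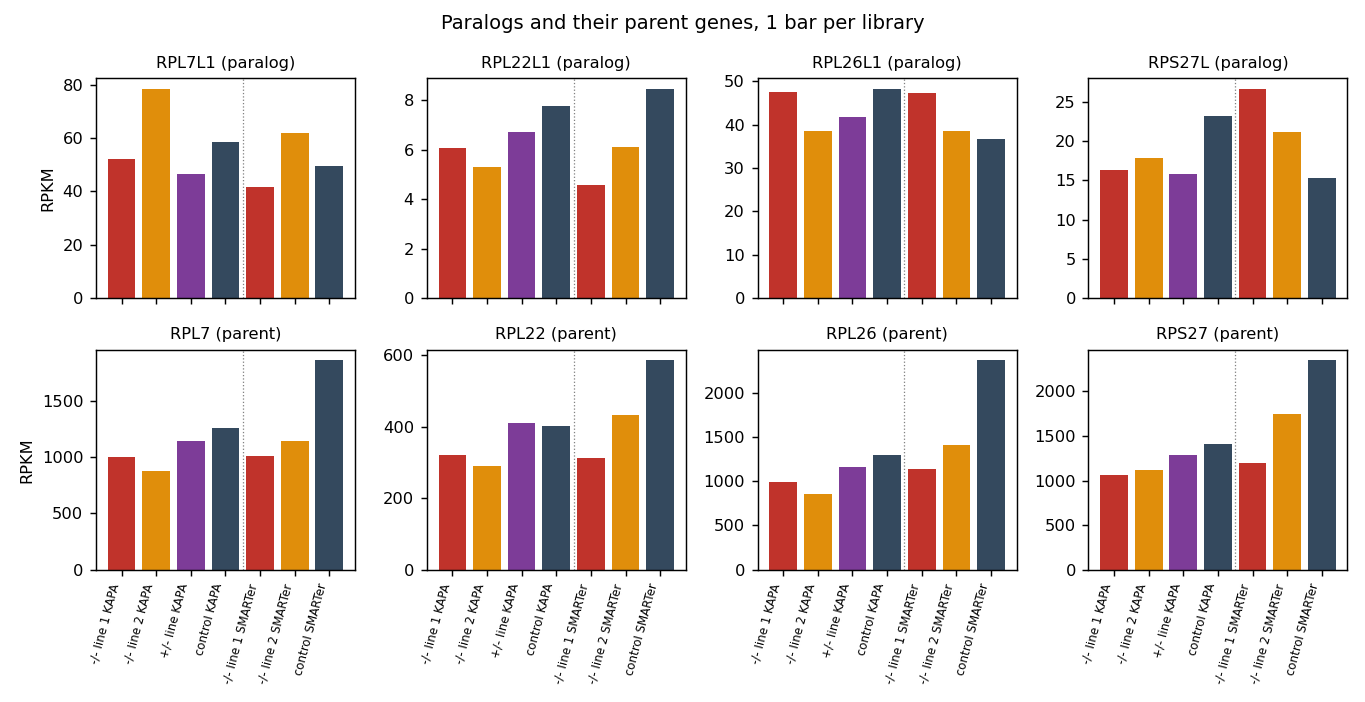
RPKM of the 4 tested paralogs (top) and their parent genes (bottom), 1 bar per library, KAPA left and SMARTer right of the dotted line. RPL22 and RPL22L1 are lower in the ARID1A-/- lines than in control within each kit, while RPL7L1 is highest in line 2.

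Taken by line, 20 of the 81 genes fell in line 1 against control (8.27% of all genes fell) and 42 fell in line 2 (8.52% of all genes). The medians were -0.47 in line 1 and -0.55 in line 2. No ribosomal protein gene rose (0 in each line), where 4.75% of all genes rose in line 1 and 5.47% in line 2; at an unadjusted p under 0.05, 0 were higher in line 1 and 1 in line 2, and DESeq2 and limma called 0. Both comparisons share the control libraries. The calls were shared by 15 genes, among them RPL12, RPL26, RPL5, RPLP2, RPS21, RPS25, RPS26 and RPS27A. Past the threshold in line 1 alone were 5 genes, RPL27A, RPL41, RPS10, RPS18 and RPS27, and in line 2 alone 27. This is no test of a difference between the lines. The matching shares of all genes called in both lines or in 1 line alone were not taken, so the sizes of these counts are not read as a result. The falls in line 1 numbered 1 and 3 without the SMARTer and the KAPA control, 7 and 52 without the SMARTer and the KAPA library of line 1, and 8 and 7 without those of line 2. In line 2 they numbered 1 and 5 without the SMARTer and the KAPA control, 1 without either of its own libraries, and 75 and 76 without the SMARTer and the KAPA library of line 1. DESeq2 called 50 in line 1 and 73 in line 2, limma 11 and 16. Within kits, the member median of line 1 minus control was -0.28 in KAPA and -0.66 in SMARTer, and that of line 2 minus control -0.44 in KAPA and -0.66 in SMARTer. A term for the difference between the kits had a median of 0.28 over the members (79 of 81 above 0). Over all genes its median was 0.04 (8151 of 14711 above 0). That fit has 1 residual degree of freedom, and 0 of all 14711 genes passed in edgeR, so the lack of calls cannot decide whether the members differ between kits. An unadjusted p under 0.05 was found for 1 member and for 427 of all genes. Gene by gene the kits ranked the core genes alike: the 77 differences from control in KAPA and in SMARTer had a Spearman rho of 0.64 for line 1 and 0.74 for line 2, from separate libraries that share gene length and sequence.

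**Figure D4:**
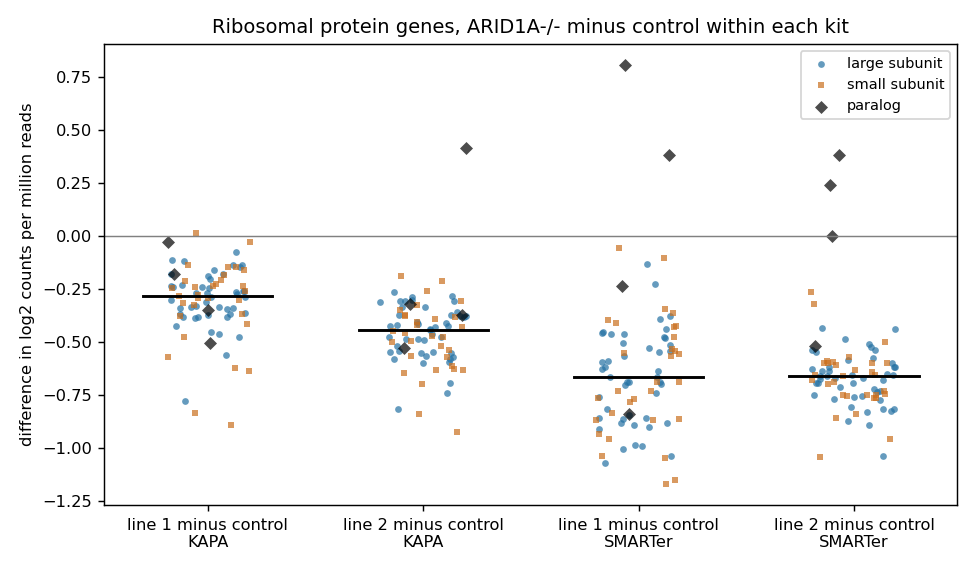
Difference in log2 CPM from the control library of the same kit, for each tested ribosomal protein gene in each line. CPM are counts scaled to the library total times its TMM factor. Black bars are medians over the 81 genes (-0.28 and -0.44 in KAPA, -0.66 and -0.66 in SMARTer). Nearly all core genes are below 0 in all 4 comparisons, and the paralogs scatter on both sides of 0, except for line 1 in KAPA, where all 4 are below it.

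Between the lines themselves, line 1 minus line 2, 2 of the 81 genes were lower and 0 higher (7.1% and 5.71% of all genes). At an unadjusted p under 0.05, 5 were lower and 11 higher, and DESeq2 called 4 lower and 2 higher, limma 1 and 0. RPL7L1, with the values given above, differed by -0.54 ± 0.11 (edgeR adjusted p = 0.027), and within kits it differed by -0.59 in KAPA and -0.48 in SMARTer. RPS10, a protein of the small subunit head, had 775 and 808 RPKM in line 1, 1052 and 1280 RPKM in line 2, 905 RPKM in the ARID1A+/- library and 1195 and 1462 RPKM in control. Line 1 was below line 2 in each kit without overlap, by -0.51 ± 0.13 over both (edgeR adjusted p = 0.047). RPS18, also of the small subunit head, had 429 and 360 RPKM in line 1, 548 and 693 RPKM in line 2, 458 RPKM in the ARID1A+/- library and 656 and 824 RPKM in control. Its difference was the largest at -0.60 ± 0.16 and did not pass (edgeR adjusted p = 0.061). RPLP1 differed most the other way, with 427 and 702 RPKM in line 1, 348 and 442 RPKM in line 2, 560 RPKM in the ARID1A+/- library and 508 and 780 RPKM in control, a difference of 0.52 ± 0.15 that did not pass (edgeR adjusted p = 0.064). Both calls were lost without either library of line 2, where RPL7L1 was at -0.58 and -0.46 and RPS10 at -0.47 and -0.52 without the SMARTer and the KAPA library, and without the SMARTer control (-0.53 and -0.51). That of RPS10 was lost without the KAPA control and without the SMARTer library of line 1 too (-0.51 and -0.43).

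Only 7 of the 81 genes were lower in line 1 than in line 2 within both kits (34.7% of all genes were), and 43 were higher in both (34.2% of all genes). The 7 were RPL41, RPL7L1, RPLP0, RPS10, RPS18, RPS26 and RPS27. RPS18, RPS10, RPL10A and RPL7L1 lie on chromosome 6 in that order, and RPS26, RPL41 and RPLP0 on chromosome 12. The genes next to them were therefore taken from the RefSeq order, up to 20 tested genes on each side. Only the ribosomal protein genes themselves were left out of the neighbours, so readthrough or pseudogene entries that share their reads could be among them. Around RPS10, 39 of 40 neighbours had a line 1 minus line 2 fold change below 0, with a median of -0.59, and 18 of them passed as lower. RPS18 had 37 of 40 neighbours below 0 (median -0.55, 13 passed) and RPL7L1 38 of 40 (median -0.44, 9 passed). RPL10A stood in the same stretch, with a neighbour median of -0.57, but was itself at -0.06. RPS12, also of chromosome 6, had neighbours at 0.06 and was at 0.35. Windows of nearby genes overlap, so these medians are not separate observations.

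On chromosome 12 the neighbours of RPS26 and RPL41 had a median of -0.46, beside -0.40 and -0.42 for the genes themselves, while RPLP0 was at -0.18 among neighbours at -0.52. Against control, the neighbours of RPS10 had a median of -0.23 in line 1 and 0.41 in line 2, while RPS10 was at -0.73 in line 1 and -0.23 in line 2. RPS10 thus lay below the median of its neighbours in both lines. In the main fit 62 of the 81 ribosomal protein genes had a fold change above 0 in line 1 minus line 2, against 7377 of all 14711 genes. This depended on the scaling and on 1 library. After quantile normalization 43 of 81 were above 0, and without the KAPA library of line 1 it was 35 of 81, with a median of -0.027. On chromosome 19, which holds the most of them, all 12 ribosomal protein genes had a fold change above 0 (median 0.29; 11 of 12 after quantile normalization or without the KAPA library of line 1), and the 833 other tested genes of that chromosome had a median of -0.02. The 6 on chromosome 17, the 3 on chromosome 16 and the 4 each on chromosomes 5, 8 and 9 were all above 0 as well, with a median of 0.18 on chromosome 5 against -0.06 for its other genes. Over the 81 genes, the fold change of line 1 minus line 2 had a Pearson correlation of 0.62 with the neighbour median (Spearman rho 0.38), and that of both lines minus control one of 0.25 (rho 0.13). The part of chromosomal position in these differences was not tested.

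**Figure D5:**
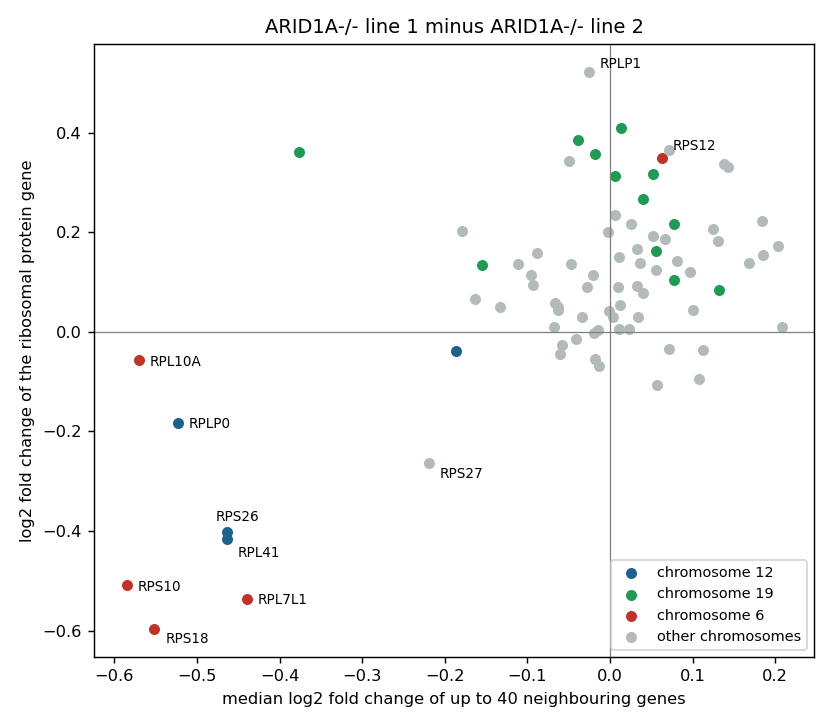
Line 1 minus line 2 log2 fold change of each ribosomal protein gene (y) against the median of up to 40 neighbouring genes in RefSeq order (x). RPS18, RPS10 and RPL7L1 on chromosome 6 and RPS26 and RPL41 on chromosome 12 lie low with their neighbours, RPL10A does not, and the chromosome 19 genes lie above 0.

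The ARID1A+/- line, with 1 library and no replicate check, was set against the KAPA libraries on log2(RPKM + 1). Its ribosomal protein genes were near the control, with a median difference of -0.05 (all genes -0.04). They were above both ARID1A-/- lines, with medians of 0.22 against line 1 (all genes -0.06) and 0.43 against line 2 (all genes -0.06). At least 0.5 below the control were 2 of 81 genes, RPS27L (-0.53) and RPS18 (-0.52), against 9.24% of all genes. Next came RPS10 (-0.40) and RPL7L1 (-0.33), so 3 of the 4 lowest were the chromosome 6 genes named above, and the neighbours of RPS10 had a median of -0.29 in this library. The neighbours of RPS21 were at -0.25, with 35 of 40 below the control, and RPS21 at -0.31. Highest above the control were RPL17, with 979 RPKM in the ARID1A+/- library against 704 RPKM in control (0.47), RPL13 (0.30) and RPS15 (0.26), so 0 of 81 were at least 0.5 above it, against 7.3% of all genes. The neighbours of RPL17 had a median of 0.53 (4 of 40 below 0) and those of RPS15 of 0.24, whereas those of RPL13 were at -0.06. With 1 library these differences have no error.

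Most core mRNAs were at lower levels in KAPA than in SMARTer libraries. With the group in the model 51 of the 81 genes were lower in KAPA and 0 higher (7.99% and 5.3% of all genes), with a median of -0.51; 1 gene was higher at an unadjusted p under 0.05, and DESeq2 called 0 higher and limma 1. The large subunit had 33 of 46 lower (median -0.56), the small subunit 18 of 31 (median -0.49) and the paralogs 0 of 4, also at an unadjusted p under 0.05. Scaled by library totals alone, which moved the median of all genes between the kits to 0.16, 25 were lower and 2 higher, and limma called 11 lower. Kit and repeat coincide and cannot be told apart, and the kit difference was widest in the control, with medians of -0.33 in line 1, -0.48 in line 2 and -0.71 in control. Without either control library 0 genes passed (55 core genes lower at an unadjusted p under 0.05 without KAPA and 57 without SMARTer), and 1 passed without either library of line 2. The shift differed in size from gene to gene. RPL23A, where the signal recognition particle docks at the exit tunnel, had 310 RPKM in KAPA and 487 RPKM in SMARTer in line 1, 241 and 402 RPKM in line 2 and 389 and 784 RPKM in control, a fold change of -0.97 ± 0.11 (edgeR adjusted p = 0.012). RPS24 was at -0.97 ± 0.13 (edgeR adjusted p = 0.017), RPL11 at -0.82 ± 0.13 (edgeR adjusted p = 0.019), RPL4 at -0.79 ± 0.14 (edgeR adjusted p = 0.024) and RPL26 at -0.77 ± 0.14 (edgeR adjusted p = 0.026).

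KAPA was below SMARTer in all 3 groups for 70 of the 81 genes (28.8% of all genes) and above it in all 3 for RPL35A, RPL7L1 and RPS21 (25.5% of all genes). RPS21 was thus higher with KAPA in each group while it fell most in the ARID1A-/- lines, and its kit difference of 0.23 ± 0.09 did not pass (edgeR adjusted p = 0.140). RPL35A was at 0.22, RPS28 at 0.10 and RPS27A, which is made as a fusion to ubiquitin, at 0.09, none past the threshold. The kit difference had a Spearman rho of -0.38 with the mean RPKM of the 81 genes and of -0.11 with their listed length.

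Other genes of translation were set beside them. Among ribosomal protein genes outside the numbering, over both lines, FAU was at -0.18, RPL36AL at -0.24 and GNB2L1, which encodes RACK1, at -0.49, none past the threshold. Of 17 other mRNAs known for a TOP start, 10 fell and 0 rose (9.57% and 4.64% of all genes), with a median of -0.53. EEF1D, an exchange factor of elongation, had 66.0 and 61.1 RPKM in line 1, 52.3 and 50.1 RPKM in line 2, 87.4 RPKM in the ARID1A+/- library and 91.9 and 93.9 RPKM in control and fell by 0.72 ± 0.10 (edgeR adjusted p = 0.005). NACA, of the complex that meets nascent chains, fell by 0.87 ± 0.14 (edgeR adjusted p = 0.010). It had 151 and 128 RPKM in line 1, 202 and 251 RPKM in line 2, 262 RPKM in the ARID1A+/- library and 285 and 361 RPKM in control. TPT1 fell by 0.75 ± 0.14 (edgeR adjusted p = 0.016), and the non-coding host gene GAS5 fell by 0.72 ± 0.16 (edgeR adjusted p = 0.028). Taken by line, EEF1D and TPT1 passed in both, NACA in line 1 alone and GAS5 in line 2 alone.

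Genes that make or assemble ribosomes without being part of them passed at about the share of all genes. Of 15 for rRNA synthesis and assembly, 1 fell and 0 rose over both lines (9.57% and 4.64% of all genes), with a median of -0.17. The 1 gene, POLR1D, a subunit shared by RNA polymerases I and III, had 8.76 and 9.06 RPKM in line 1, 17.5 and 23.6 RPKM in line 2, 22.2 RPKM in the ARID1A+/- library and 24.4 and 30.2 RPKM in control. It fell by 1.03 ± 0.11 over both lines (edgeR adjusted p = 0.002), and its level was lowest in line 1. Taken by line, POLR1D passed in line 1 and not in line 2, and it also passed as lower in line 1 minus line 2. Of 8 dedicated chaperones of ribosomal proteins 0 passed in edgeR over both lines (median -0.15), with 2 lower and 1 higher at an unadjusted p under 0.05 and 1 lower by DESeq2. Among 13 regulators, 1 fell, near the share of 9.57% of all genes. This was MYC, at 0.22 and 0.35 RPKM in line 1, 0.25 and 0.66 RPKM in line 2, 0.34 RPKM in the ARID1A+/- library and 0.55 and 1.29 RPKM in control, a fold change of -1.34 ± 0.25 at a low level (edgeR adjusted p = 0.018). MYCN had 1063 and 1435 RPKM in line 1, 606 and 2343 RPKM in line 2, 783 RPKM in the ARID1A+/- library and 1226 and 3663 RPKM in control. Its fold change over both lines was -0.78 ± 0.27 and did not pass (edgeR adjusted p = 0.109), but KAPA was below SMARTer by -1.50 ± 0.27 (edgeR adjusted p = 0.026). MYCN was thus below the control in each line within each kit, as the core genes were, while in the ARID1A+/- library it was below the KAPA control and the core genes were near it; its part in their levels was not tested.

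Some genes share reads with other listed entries, so their counts are uncertain. The readthrough entry that joins RPS10 to NUDT3 held 93.5% to 99.2% of the count of RPS10 across libraries, that of RPL17 with C18orf32 92.4% to 97.9%, and that of RPL36A with HNRNPH2 91.0% to 112%. The pseudogene entry RPSAP58 held 82.5% to 86.1% of the count of RPSA, RPL13AP20 26.7% to 37.7% of that of RPL13A and RPS26P11 27.5% to 34.0% of that of RPS26. Without these 6 genes and 2 others with similar copies, RPL23A and 1 that is not reported here, 49 of the other 73 fell over both lines, with a median of -0.51.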

How the data were processed

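Per the submitters' processing notes, alignment used HISAT2 2.1.0 and hg19. How reads were counted, with which annotation and strand setting, is not given in the sources used here, so overlapping genes are uncertain. Per the file headers, the authors deposited whole-number counts and RPKM per entry; the deposited RPKM follows from count, length and library total to within 0.000501%. Labels name polyadenylated RNA, and protocols the removal of rRNA; entries named for rRNA held 1.95% to 2.64% of the counts.

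Counts of the 6 control and ARID1A-/- libraries were scaled by TMM and tested with edgeR 4.0.16 (quasi-likelihood; R 4.3.3) in a model of group and kit with 2 residual degrees of freedom. The filter on mean RPKM (0.5 or more) kept 14711 entries, and p-values were adjusted by Benjamini-Hochberg over all of them (threshold 0.05). A standard error is the log2 fold change over the square root of F. Within-kit differences are of TMM-scaled log2 CPM. The kit is also the replicate block: libraries of a kit deviated together, with correlations of the KAPA minus SMARTer differences of 0.51 between line 1 and control, 0.65 between line 2 and control and 0.43 between the lines. The ARID1A+/- library was compared on log2(RPKM + 1) without a test. Alternatives used DESeq2 1.42.0 and limma 3.58.1, and the edgeR step was tested on simulated counts. Starts, gene order and windows came from RefSeq (GRCh38.p14), matched by symbol (12022 of the tested entries placed), and no hg19 coordinates were used.

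Genes named were the paralogs and parents, 9 genes with known roles, the 5 highest and 5 lowest fold changes per comparison, the 3 furthest each way in the ARID1A+/- library, the 5 highest and 5 lowest levels and up to 4 called genes per other list, not all of which are printed; some genes are not reported here. RPL10A, RPS12, the other genes of chromosomes 6, 12 and 19, MYCN, MDM2 and CDKN1A with values that did not pass, and genes sharing reads were named after their values were seen. Members and lists were chosen with earlier results of these data known.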

Additional observations from a re-analysis of the deposited data

Results flagged for a closer look

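The lines differed from each other in 2 of the 81 ribosomal protein genes by the test of the difference itself, 2 lower and 0 higher in line 1. Of all genes 7.1% were lower and 5.71% higher. Both genes lie on chromosome 6, where 38 of 40 neighbours of RPL7L1 and 39 of 40 of RPS10 were below 0 too. The part of chromosomal position was not tested. RPL7L1 was at -0.54 (log2, line 1 minus line 2; edgeR adjusted p = 0.027), lower in line 1 in 2 of 2 kits, and its adjusted p ranged between 0.003 and 0.232 over the alternatives. RPS10 was at -0.51 (edgeR adjusted p = 0.047), also lower in line 1 in 2 of 2 kits, with an adjusted p between 0.003 and 0.423 over the alternatives. Its reads are counted in a readthrough entry as well, which was not barred from the neighbours.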

How the results depend on the processing

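The kit entered as the replicate block. Without it, 1 gene fell over both lines, 0 in line 1 and 1 in line 2, 0 were lower between the lines, and the large minus small subunit median was -0.0011 against 0.014; the kit comparison has no such fit. DESeq2 size factors, TMM without ribosomal protein genes and a filter of at least 1 kept every count against control within 1.5 times. DESeq2 gave 50 falls in line 1 and 73 in line 2, with 4 lower and 2 higher between the lines; no filter gave 32 in line 1 and 1 higher between the lines. Library totals alone moved the median of all genes between the kits to 0.16, and gave 25 lower and 2 higher there. Upper quartile and DESeq2 factors gave 1 lower between the lines, and with upper quartile factors RPL26L1 was at -0.012 over both lines. Limma on log2(RPKM + 1) gave 17 falls over both lines, 11 in line 1, 16 in line 2 (14 with a pseudocount of 0.1), 1 lower between the lines, and 11 lower and 1 higher between the kits. After quantile normalization limma gave 8 falls over both lines, 3 in line 1, 6 in line 2, 4 lower between the lines and 4 lower between the kits, with medians of -0.25 over both lines, -0.27 in line 2 and -0.18 between the kits. There RPS15 was at 0.16 over both lines and 0.28 in line 1, RPLP1 at 0.083 and RPSA at 0.088 in line 1, RPS10 at 0.24 and RPS18 at 0.12 in line 2, and RPL26L1 at -0.023 over both lines, so the direction of these genes depends on the scaling. With a filter of at least 1, RPL26L1 was at -0.0012. RPS27L in line 2 was at 0.0049 with library totals, 0.038 and 0.041 with limma at a pseudocount of 1 and 0.1, and 0.0028 without the block.

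Without 1 library, which leaves 1 residual degree of freedom, falls ranged from 1 to 76 over both lines, 1 to 52 in line 1 and 1 to 76 in line 2. Between the lines 0 to 4 were lower and 0 to 1 higher, with a median from -0.027 to 0.23, and between the kits 0 to 65 were lower. The subunit difference ranged from 0.0051 to 0.029. RPL26L1 ranged from -0.21 to 0.20 over both lines, -0.034 to 0.37 in line 1 and -0.38 to 0.025 in line 2. RPS27L ranged from -0.47 to 0.61 over both lines, -0.39 to 0.68 in line 1 and -0.54 to 0.53 in line 2. RPS15 ranged from -0.14 to 0.036 in line 1 and RPS27A from -0.019 to 0.17 between the kits. The causes were not tested. Depth does not limit the core genes, but RPL3L, RPL10L and RPL39L had too few counts to compare.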
